A study of Mus musculus with 6 samples.

Results

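The genes of mitosis and of the G2/M transition were examined in Nestin-GFP-positive cells sorted from neonatal mouse skin with its fat layer. The members were 38 genes for cyclins, mitotic kinases, kinetochore and spindle proteins and cytokinesis factors. They were found by matching their symbols to the Ensembl identifiers of the count tables, and all 38 matched 1 row each out of 37991 gene rows. All 38 passed the filter on low counts, with between 145 and 5227 reads per gene and library. The 3 control mice carried the Nestin-GFP reporter alone (Nes-GFP). The 3 mutant mice (Nes-GFP;Nes-Cre;PDGFRα+/[S]D842V) had, besides that reporter, Nes-Cre and a single Pdgfra allele changed at the protein level by D842V, which activates the receptor. The labels do not explain "[S]". All mice were 3 days old and each library came from 1 mouse. Cre was driven by Nestin sequences, and the control genotype has no Cre, so the effects of Cre and of the allele cannot be told apart. The labels used here give no strain, sex or litter.

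Entry into mitosis is driven by cyclin B bound to the kinase Cdk1. The Aurora and Polo kinases and the spindle checkpoint then guide the attachment of chromosomes to microtubules through the kinetochore. The anaphase-promoting complex with its activator Cdc20 starts chromosome separation, and a ring of actin and myosin divides the cell. The transcripts of these factors rise together in the G2 phase of dividing cells. Their genes are controlled, down as well as up, by complexes that bind the cell cycle homology region (CHR) of their promoters. These are the DREAM complex, a repressor, and the B-Myb-MuvB-FoxM1 complexes, which activate. NF-Y acts at their CCAAT boxes. In a mixture of cells such transcripts come from the dividing fraction, so in bulk samples fewer dividing cells and less RNA per dividing cell cannot be told apart.

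Gene counts per library ran from 11912469 to 18792939. Levels are given in CPM, each count divided by the library size as scaled by TMM, a method that corrects for composition. Pdgfra itself had 857, 820 and 856 CPM in control replicates 1 to 3 and 369, 345 and 359 CPM in mutant replicates 1 to 3. It fell by 1.24 on the log2 scale (edgeR adjusted p = 2.75e-06). The counts do not separate the alleles, and how far the changed allele is counted in this row is not known. Nes had 67.9 to 79.2 CPM in controls and 74.3 to 99.6 CPM in mutants. The labels give white fat as the tissue, and of 6 tested adipocyte markers 4 had a log2 fold change above 0 and 2 below. Adipoq, one that was not called, had 5.29 to 14.98 CPM in controls and 16.7, 61.8 and 9.29 CPM in mutant replicates 1 to 3. Among 12 pericyte markers 5 had a log2 fold change above 0 and 7 below, with a median of -0.06. Of these 12, 2 (Kcnj8 and Abcc9) were called higher and 0 lower, where 8.63% of all tested genes were called higher and 9.13% lower. The pericyte markers Rgs5 (-0.72) and Pdgfrb (-0.06) were not called.

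Fewer mitotic transcripts were found in mutant cells. Of the 38 genes 17 fell, none rose and 21 were not called, against 9.13% of all 15035 tested genes called lower and 8.63% called higher (edgeR quasi-likelihood test, adjusted p under 0.05). At an edgeR unadjusted p under 0.05, 24 were lower and 1 was higher, but the share of all genes at that cut was not counted. These counts therefore have no background to be read against. DESeq2 called 16 lower and 0 higher, with 1275 of all genes lower. That is 5.28% of the 24128 genes given a fold change, which include genes that DESeq2 left without an adjusted p. The share among genes it could call is therefore higher and was not counted. The log2 fold change, mutant over control, was below 0 for 36 of the 38, with a median of -0.24 where all tested genes had a median of 0.01. The changes were modest: of the 17, Top2a fell by 17.5%, the smallest change, and Cenpf fell by 35.2%, the largest, and none was as much as 2-fold lower. Among all genes called lower, 12.4% were at least 2-fold lower. The median log2 fold change was -0.49 for members called lower and -0.47 for all genes called lower. Every mutant library lay below every control library for 24 of the 38 genes, where 18.6% of all tested genes did so. The groups overlapped for the other 14, and no gene had every mutant library above every control (19.2% of all tested genes).

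The summed level of the 38 genes was 2497, 2634 and 2713 CPM in control replicates 1 to 3 and 2207, 2002 and 2220 CPM in mutant replicates 1 to 3. The 3 mutant sums lay below the 3 control sums, and the ratio of the group means was 0.820. Mutant replicate 2 was the lowest of the 6 libraries for 28 genes, and control replicate 3 was the highest for 26. That mutant library also had the highest summed level of 7 adipocyte markers, 569.5 CPM where mutant replicates 1 and 3 had 285 and 262 CPM and the controls had 172 to 261 CPM, and the part of this in the result was not tested. Falls numbered 10 of 38 when control replicate 2, control replicate 3, mutant replicate 2 or mutant replicate 3 was left out, with 5.77%, 5.27%, 6.87% and 4.95% of all genes then lower. They numbered 21 without control replicate 1 (9.8% of all genes) and 15 without mutant replicate 1 (7.12%). With other settings the members called lower were 17 with RLE scaling (9.36% of all genes) and 16 with total-count scaling (8.67%). With no filter they were 18 (7.65% of a larger set of 24128 genes). Limma-voom gave 15 (8.75%), non-robust estimation 15 (8.84%) and a replicate block 16 (9.57%). The same 10 genes were called under each of 15 alternatives: Anln, Cenpf, Cenpe, Kif20b, Hmmr, Ect2, Mki67, Prc1, Nuf2 and Plk1.

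**Figure D1:**
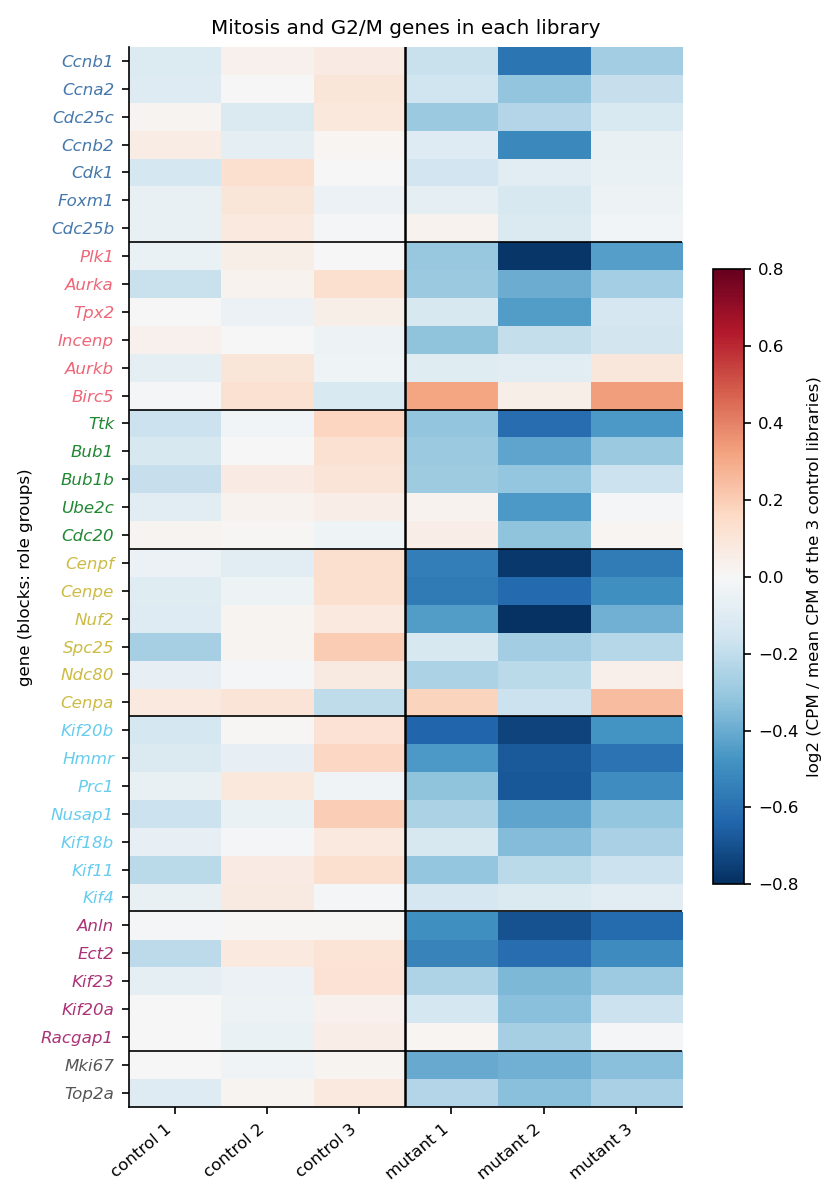
Level of each of the 38 genes in each library, as log2 of CPM over the mean of the 3 control libraries, with genes in blocks by role. Blue marks levels below the control mean, which fill most of the 3 mutant columns and are deepest in mutant replicate 2; Birc5 and Cenpa are the genes whose fold change is above 0.

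Promoter sequences are shown for 4 members to set genes with the strongest calls beside genes with a fold change near 0. Anln and Cenpf had the smallest adjusted p of the called members, and Cdc25b and Cdc20 had the fold changes nearest 0 of the uncalled members with an entry in the table. The sequences are from RefSeq (GRCm38.p6, a later build than the mm9 of the counts) and run 5′ to 3′ from 220 bases before the annotated start to 30 bases after it. Capitals mark TTTGAA and TTTAAA, the core letters of a CHR, and CCAAT, each on either strand. The windows are chr9:22389177-22389426, minus strand, for Anln, chr1:189688057-189688306, minus strand, for Cenpf, chr2:131186728-131186977, plus strand, for Cdc25b, and chr4:118437314-118437563, minus strand, for Cdc20.
Anln: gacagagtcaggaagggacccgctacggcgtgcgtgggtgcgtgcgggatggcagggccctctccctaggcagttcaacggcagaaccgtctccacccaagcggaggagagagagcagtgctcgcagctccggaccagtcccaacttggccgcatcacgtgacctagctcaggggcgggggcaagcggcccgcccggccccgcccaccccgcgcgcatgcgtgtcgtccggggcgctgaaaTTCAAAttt
Cenpf: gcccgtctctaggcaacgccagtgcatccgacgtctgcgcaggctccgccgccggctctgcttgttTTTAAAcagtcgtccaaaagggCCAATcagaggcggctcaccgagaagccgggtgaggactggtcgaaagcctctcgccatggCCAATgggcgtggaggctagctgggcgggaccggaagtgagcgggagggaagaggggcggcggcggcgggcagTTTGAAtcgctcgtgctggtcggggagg
Cdc25b: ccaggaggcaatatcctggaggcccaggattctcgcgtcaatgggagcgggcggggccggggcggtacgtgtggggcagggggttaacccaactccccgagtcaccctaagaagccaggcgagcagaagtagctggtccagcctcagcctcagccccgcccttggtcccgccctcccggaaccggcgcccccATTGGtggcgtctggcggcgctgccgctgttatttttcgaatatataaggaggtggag
Cdc20: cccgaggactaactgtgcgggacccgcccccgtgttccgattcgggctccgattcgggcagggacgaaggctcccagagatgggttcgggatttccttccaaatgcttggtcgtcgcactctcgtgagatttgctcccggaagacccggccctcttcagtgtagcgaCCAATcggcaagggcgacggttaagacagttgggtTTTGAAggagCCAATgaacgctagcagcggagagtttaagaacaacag
Anln held a pair of TTTGAA matches on opposite strands at 22 and 29 bases from the start, as TTCAAAtTTTGAA, of which the last bases lie past the printed end, so only the first match is in capitals. In Cenpf the matches were TTTAAA at -154, CCAAT at -132 and -71 and TTTGAA at 3. Cdc25b held 1 CCAAT on the reverse strand at -28, and Cdc20 held CCAAT at -53 and -8 with TTTGAA at -18 between them. Promoters were found for 31 of the 38 members, 33 windows in all since Ect2 and Prc1 have more than 1 start. Within 300 bases, 250 before to 50 after the start, TTTGAA or TTTAAA was found in 87.9% of members' windows and 27.6% of all 32851 windows, and CCAAT in 81.8% and 37.4%. Among windows of members that fell, 84.2% held TTTGAA or TTTAAA, and among those of members not called 92.9% did. The motifs do not overlap each other in the windows shown, and a match of letters does not show that a factor binds there.

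Of the 7 genes for cyclins, Cdk1 and their activators 1 fell (14.3%, against 9.13% of all tested genes called lower). The count of each role group below is to be read against the same 9.13%. Ccnb1, which encodes the mitotic cyclin B1, had 62.5, 68.8 and 70.5 CPM in the controls and 59.6, 44.9 and 55.4 CPM in the mutants. All 3 mutant libraries were below the controls, with replicate 1 close to the lowest control. The log2 fold change was -0.34 (95% interval -0.56 to -0.11, edgeR adjusted p = 0.0411). Over 1287 aligned bases the Ccnb1 transcript is 99.2% identical to the pseudogene Ccnb1-ps, which had 0 counts in all libraries in these files. Reads that match both copies equally may not have been counted. The call was lost in 6 of 15 alternatives, among them each removal of control replicate 2 or 3 or mutant replicate 2 or 3 (highest adjusted p 0.137). Ccnb2, the second B-type cyclin, had 44.3, 40.3 and 43.0 CPM against 39.7, 29.7 and 40.8 CPM, with mutant replicate 2 far below the rest and mutant replicate 3 within the control range (log2 fold change -0.21, edgeR adjusted p = 0.217).

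The other genes of the group were not called. Cdk1, the catalytic partner, had 49.2, 59.3 and 54.1 CPM in controls and 48.7, 51.2 and 52.2 CPM in mutants, an overlap of the groups (log2 fold change -0.10, 95% interval -0.28 to 0.09). Foxm1, a transcription factor of G2/M genes, had 72.2, 80.5 and 72.9 CPM against 71.3, 68.9 and 73.0 CPM, and its log2 fold change of -0.08 had an interval of -0.25 to 0.08. The log2 fold change was -0.03 for Cdc25b and -0.22 for Cdc25c, phosphatases that activate Cdk1, and -0.22 for Ccna2, the cyclin of S and G2 phases, none of them called. Mutant levels of Ccna2 were 77.5 to 86.4 CPM, under the 89.9 to 103 CPM of controls.

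Plk1 and Aurka fell among the 6 genes of mitotic kinases and the chromosomal passenger complex. Plk1, the Polo-like kinase of centrosome maturation and chromosome separation, had 34.6, 37.2 and 35.9 CPM in controls and 29.1, 20.9 and 26.4 CPM in mutants. The controls were close to each other, while the mutants were spread more widely and all lower (log2 fold change -0.49, 95% interval -0.74 to -0.25, edgeR adjusted p = 0.0116). Aurka, the spindle pole kinase, had 23.3, 26.9 and 28.8 CPM against 21.4, 20.0 and 21.8 CPM, a log2 fold change of -0.32 whose edgeR adjusted p of 0.0499 lay at the threshold. Its call was lost in 10 of 15 alternatives (highest adjusted p 0.167). Tpx2, which activates Aurora A on the spindle, was not called (log2 fold change -0.23, edgeR adjusted p = 0.101).

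In the passenger complex no subunit was called. Its kinase gene Aurkb had 41.3, 46.5 and 42.4 CPM in controls and 40.5, 40.8 and 46.3 CPM in mutants (log2 fold change -0.03, 95% interval -0.21 to 0.16). Its scaffold gene Incenp had 69.4, 68.0 and 66.1 CPM against 54.3, 59.5 and 61.4 CPM, groups that did not overlap (log2 fold change -0.22, edgeR adjusted p = 0.0718). Birc5, which encodes survivin, had 32.6, 35.8 and 30.2 CPM against 40.9, 33.9 and 41.4 CPM, the largest positive fold change of the 38 (log2 0.24, 95% interval 0.02 to 0.46, edgeR adjusted p = 0.115). Without mutant replicate 2, Birc5 was called higher (edgeR adjusted p = 0.0457), the only member so called in any alternative. The fold changes of these subunits were not tested against each other.

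Of the 5 genes of the spindle checkpoint and anaphase exit 2 fell, Bub1 and Ttk. Bub1, a checkpoint kinase at the kinetochore, had 35.4, 38.6 and 42.1 CPM in controls and 31.5, 28.9 and 31.5 CPM in mutants, and Ttk, the kinase that starts checkpoint signalling, had 17.1, 19.0 and 21.6 CPM against 15.4, 12.6 and 14.0 CPM. In both genes the mutant libraries lay below the controls, with edgeR adjusted p-values of 0.0233 (log2 fold change -0.34) and 0.0246 (-0.46). Both calls were lost when control replicate 2 or 3 or mutant replicate 2 or 3 was removed, and that of Bub1 also with the GC trend removed (highest adjusted p 0.0881 and 0.105). Bub1b, the BubR1 subunit of the checkpoint complex, had a log2 fold change of -0.25 and was not called (edgeR adjusted p = 0.0709). Cdc20, which activates the anaphase-promoting complex, had 64.2, 63.6 and 61.8 CPM against 65.6, 50.5 and 63.8 CPM, so that only mutant replicate 2 lay below the controls. The fold change of Cdc20 was -0.07 on the log2 scale, and that of Ube2c, the E2 enzyme of the same complex, was -0.13 (95% interval -0.39 to 0.13). Both turned to values above 0 without mutant replicate 2 (0.034 and 0.0067).

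Of the 6 centromere and kinetochore genes 3 fell. Cenpf, a large coiled-coil protein of the outer kinetochore, had 91.3, 89.0 and 103 CPM in controls and 64.2, 55.4 and 64.04 CPM in mutants. The groups were well apart, and the log2 fold change of -0.63 (95% interval -0.82 to -0.44, edgeR adjusted p = 0.000874) was the lowest of the 38. Cenpe, the kinesin that carries chromosomes to the spindle equator, had 67.9, 70.7 and 79.4 CPM against 49.0, 47.3 and 51.7 CPM (log2 fold change -0.56, edgeR adjusted p = 0.00135). Nuf2, a subunit of the Ndc80 complex that binds microtubules, averaged 35.4 ± 2.24 CPM over controls against 24.5 ± 3.52 CPM (SD, n = 3 each; log2 fold change -0.53, edgeR adjusted p = 0.00769). Its partners Ndc80 (-0.13) and Spc25 (-0.21) were not called, and their groups overlapped. Cenpa, the centromeric histone, had 33.9, 34.4 and 27.9 CPM against 36.2, 28.5 and 38.1 CPM, with a log2 fold change of 0.10 (95% interval -0.17 to 0.36).

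Of the 7 genes for spindle motors and microtubule binding 4 fell. Kif20b, a kinesin of the central spindle, had 33.8, 37.5 and 40.3 CPM in controls and 24.0, 22.3 and 26.7 CPM in mutants (log2 fold change -0.61, 95% interval -0.83 to -0.40, edgeR adjusted p = 0.00226). Hmmr, a spindle protein that also binds hyaluronan, had 35.5, 36.8 and 43.0 CPM against 28.0, 24.1 and 25.5 CPM (log2 fold change -0.57, edgeR adjusted p = 0.00314). In both genes all mutant libraries were below all controls. Prc1, the bundler of antiparallel microtubules, fell by 0.49 and Nusap1 by 0.33 on the log2 scale. The call of Nusap1 was lost in 7 of 15 alternatives (highest adjusted p 0.145). The spindle motor Kif11 (-0.23) and the kinesins Kif18b (-0.24) and Kif4 (-0.11) were not called.

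**Figure D2:**
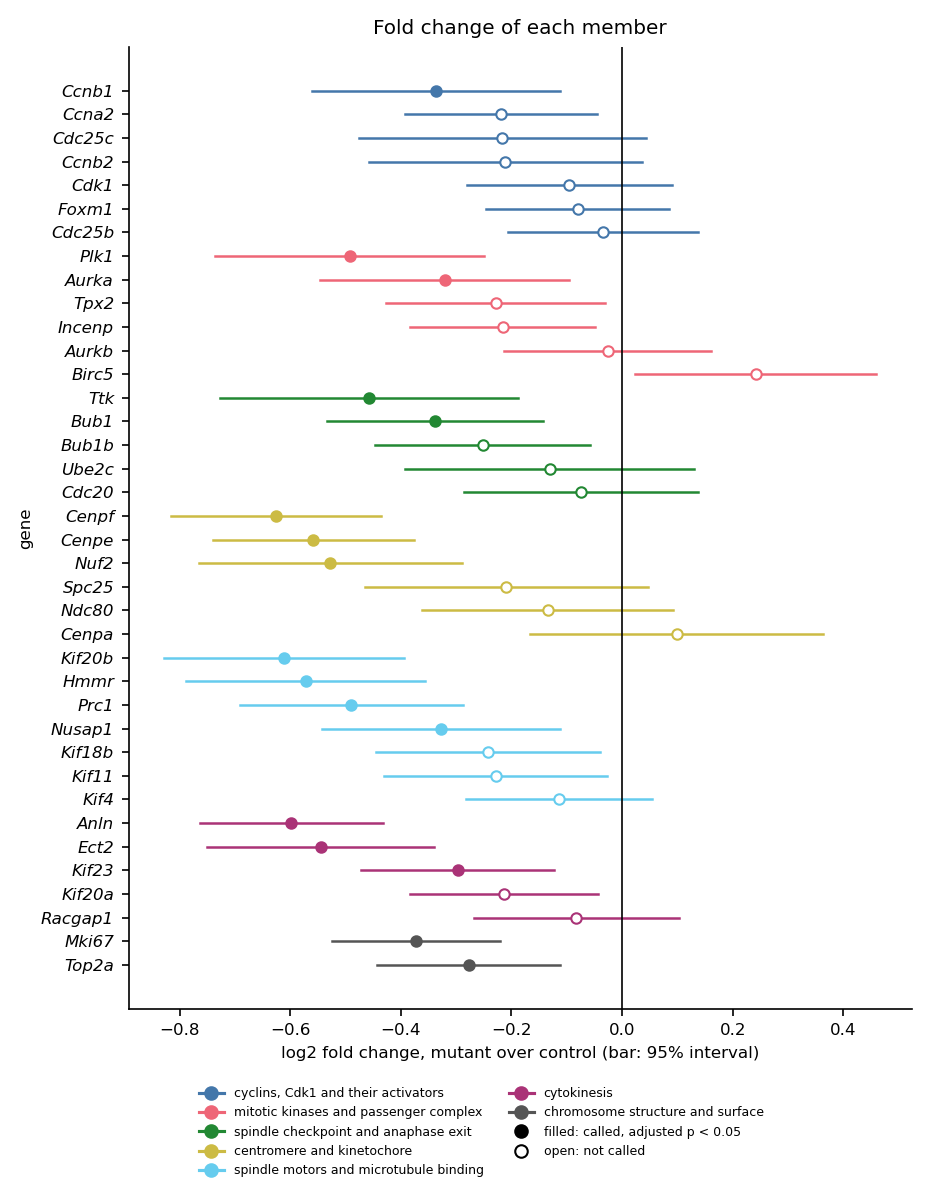
Log2 fold change, mutant over control, of each of the 38 genes with its 95% interval, coloured by role; filled points are the 17 called genes. All filled points lie left of 0, between -0.63 and -0.28, and every role group holds at least 1 of them. The cyclin group holds 1 among 7 genes (14.3%), where 9.13% of all tested genes were called lower.

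Of the 5 cytokinesis genes 3 fell. Anln, which encodes anillin, the scaffold of the contractile ring, had 99.2, 100.6 and 100.6 CPM in controls and 71.4, 61.9 and 65.3 CPM in mutants. The controls were nearly equal, the mutants all lay far below them, and the edgeR adjusted p of 0.000522 was the smallest of the 38 (log2 fold change -0.60, 95% interval -0.76 to -0.43). Ect2, the exchange factor that activates RhoA at the division plane, had 44.6, 54.5 and 55.8 CPM against 35.6, 33.9 and 36.5 CPM (log2 fold change -0.54, edgeR adjusted p = 0.00317). Of the pair that forms centralspindlin, Kif23 fell by 0.30 on the log2 scale (edgeR adjusted p = 0.0246), a call lost in 4 alternatives (highest adjusted p 0.0867). Its partner Racgap1 had 98.3, 94.8 and 102 CPM against 99.3, 81.7 and 97.7 CPM, and the log2 fold change of -0.08 had an interval of -0.27 to 0.10. Kif20a, a kinesin of the midzone, had a log2 fold change of -0.21 (edgeR adjusted p = 0.0779) and groups that did not overlap.

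Mki67 and Top2a were the most abundant members by CPM. Mki67, the proliferation antigen that coats mitotic chromosomes, had 329, 323 and 335 CPM in controls and 249.2, 252 and 261 CPM in mutants. Both groups were tight, with coefficients of variation of 1.71% and 2.40%, and did not overlap (log2 fold change -0.37, 95% interval -0.52 to -0.22, edgeR adjusted p = 0.00457). Top2a, the topoisomerase that untangles sister chromatids, had 269, 293 and 305 CPM against 245, 229 and 241 CPM (log2 fold change -0.28, edgeR adjusted p = 0.0263). Its call was lost in 6 of 15 alternatives (highest adjusted p 0.088). Per kilobase of exon the order of levels differed: Cdc20 was highest in controls with 33.8 CPM per kb, followed by Mki67 with 32.7, Top2a with 32.1 and Ccnb2 with 27.8. At the low end stood Ttk (3.91), Ndc80 (3.80) and Cdc25c (2.68 CPM per kb). Within groups the median coefficient of variation over the 38 genes was 6.36% in controls and 7.14% in mutants.

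Counting could blur some of these values. Exons of 10 members share bases with a gene on the opposite strand in the GENCODE M21 annotation, among them Kif20a with Cdc23, Prc1 with Rccd1, Kif4 with Pdzd11, Ube2c with Tnnc2 and Ccna2 with Exosc9. No source used here states whether counting used strand. The largest overlap was that of Kif20a, with 1271 shared bases. Ccnb1, Mki67, Ndc80 and Racgap1 have a copy elsewhere in the genome of at least 95% identity over part of the transcript, and their counts are uncertain to that extent.

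A further 88 mitosis genes that are not members were counted for comparison. Of these 29 fell, none rose and 59 were not called, with a median log2 fold change of -0.24, where 9.13% of all tested genes were lower and 8.63% higher. Leaving out a library gave 18 falls (control replicate 2, 5.77% of all genes), 16 (control replicate 3, 5.27%) or 18 (mutant replicate 3, 4.95%). Aspm, a spindle pole protein that maintains symmetric division, had 56.6, 65.4 and 66.9 CPM in controls and 31.5, 32.3 and 37.0 CPM in mutants, a log2 fold change of -0.90 (edgeR adjusted p = 0.000152). Cep55, which acts in abscission, fell by 0.73, the cohesin protector Sgo2a by 0.54, the spindle protein Fam83d by 0.52, the condensin subunit Ncapg2 by 0.49 and the centromere protein Cenpc1 by 0.49 on the log2 scale. Every mutant library was below every control for 43 of the 88 genes and above for 5, where 18.6% and 19.2% of all tested genes did so. The 6 named genes, chosen by smallest adjusted p, were among the 43.

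Of 61 genes of S phase and DNA replication 10 fell (16.4%, against 9.13% of all tested genes), 1 rose (8.63% of all tested genes) and 50 were not called, with a median log2 fold change of -0.08. Their summed level was 2480, 2706 and 2491 CPM in controls and 2390, 2412 and 2399 CPM in mutants, a ratio of group means of 0.938. The sum of the 38 mitosis genes over that of the S phase genes was 1.01, 0.973 and 1.09 in controls and 0.924, 0.830 and 0.925 in mutants. No test compared the 2 lists. Ccne2, a cyclin of S phase entry, fell by 0.79 on the log2 scale, the chromatin remodeller Hells by 0.63 and the replication kinase Cdc7 by 0.57. Gins2, a subunit of the replicative helicase, rose from 29.6 ± 2.01 to 39.2 ± 1.71 CPM (SD, n = 3 per group).

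**Figure D3:**
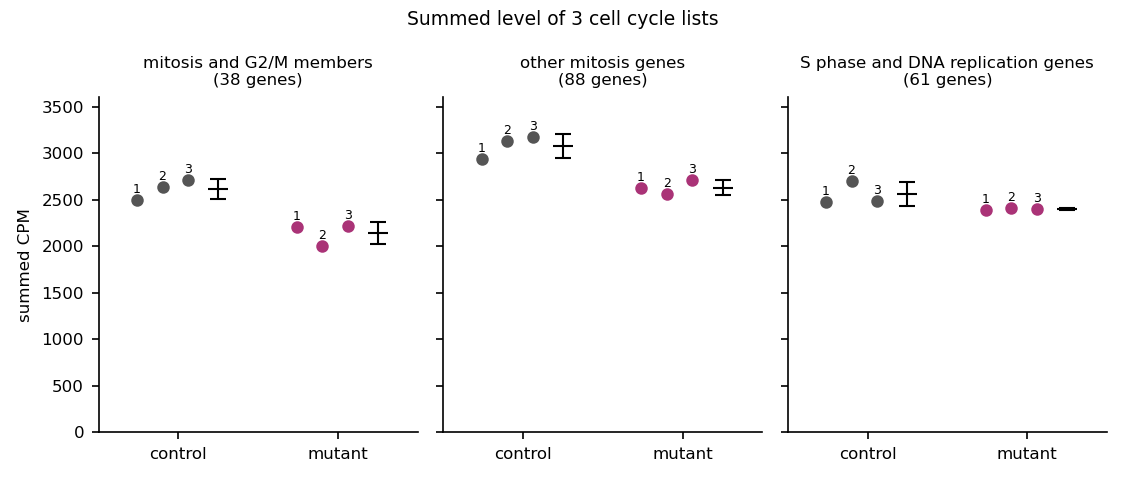
Summed CPM of the 38 mitosis and G2/M genes, of 88 other mitosis genes and of 61 S phase genes in each library, numbered by replicate, with mean and SD of 3 libraries beside the points. In each panel the 3 mutant sums lie below the 3 control sums, by a ratio of means of 0.820, 0.855 and 0.938.

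Among 25 regulators of mitotic transcription 6 fell (24.0%, against 9.13% of all tested genes), 2 rose (8.63% of all tested genes) and 17 were not called, with a median log2 fold change of -0.15. Without control replicate 2 there were 3 lower and 1 higher, with 5.77% of all genes lower. There were 4 lower and 1 higher in each case when the library left out was control replicate 3 (5.27%), mutant replicate 2 (6.87%) or mutant replicate 3 (4.95%). Cdkn1c, which encodes the cyclin-dependent kinase inhibitor p57, had 226, 302 and 277 CPM in controls and 558, 520 and 576 CPM in mutants, a rise by 1.04 on the log2 scale (edgeR adjusted p = 0.00011). Nfya, the DNA-binding subunit of NF-Y, had 74.4, 79.0 and 80.6 CPM against 55.5, 57.7 and 49.6 CPM (log2 fold change -0.52, edgeR adjusted p = 0.00171). Trp53 fell by 0.42 and Rbl1, the p107 subunit of DREAM, by 0.34 on the log2 scale. The call of Rbl1 was lost without control replicate 2 (edgeR adjusted p = 0.053). Chosen after their values were seen, Lin54, the MuvB subunit that contacts the CHR, fell by 0.41 (edgeR adjusted p = 0.0131) and Mybl2, which encodes B-Myb, had a log2 fold change of 0.01 (edgeR adjusted p = 0.955).

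**Figure D4:**
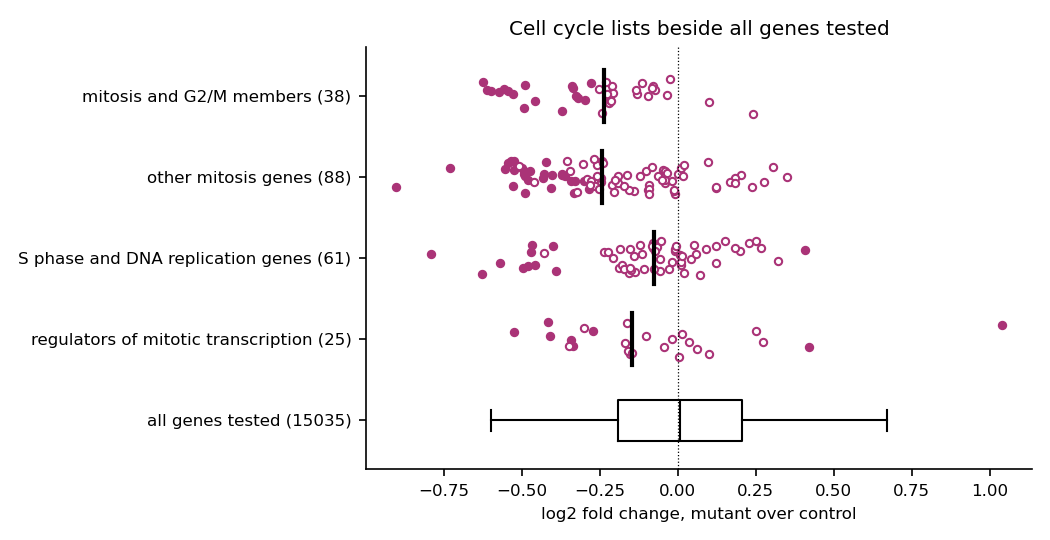
Log2 fold changes, mutant over control, of 4 cell cycle lists, with each gene as a point (filled where called), the list's median as a bar and all 15035 tested genes as a box (quartiles, whiskers from the 5th to the 95th percentile). The medians are -0.24 for the members, -0.24 for the other mitosis genes, -0.08 for S phase genes and -0.15 for regulators, against 0.01 over all genes.

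The calls were set against the base composition of the transcripts. Of 16 members under 45% GC in the longest annotated transcript, 12 fell, with a median log2 fold change of -0.40. Of the 22 others 5 fell, with a median of -0.21. Of all genes with a value, 13.6% of those under 45% GC and 7.90% of the others were called lower, with medians of -0.08 and 0.03. Spearman's rho of log2 fold change with GC content was 0.57 over the 38 members and 0.20 over 14553 genes with a value, and with transcript length it was -0.34 and -0.21. Genes of 1 fit share libraries and are not independent, so no p is given. With the GC trend of each library removed, 15 members were lower (9.76% of all genes) and the median was -0.22. Incenp (edgeR adjusted p = 0.0222) and Kif18b (0.0395) were then called, and Bub1, Ccnb1, Nusap1 and Top2a were not (edgeR adjusted p = 0.0526 to 0.102). With the length trend removed 16 members were lower (7.89% of all genes), all but Top2a of the 17.

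**Figure D5:**
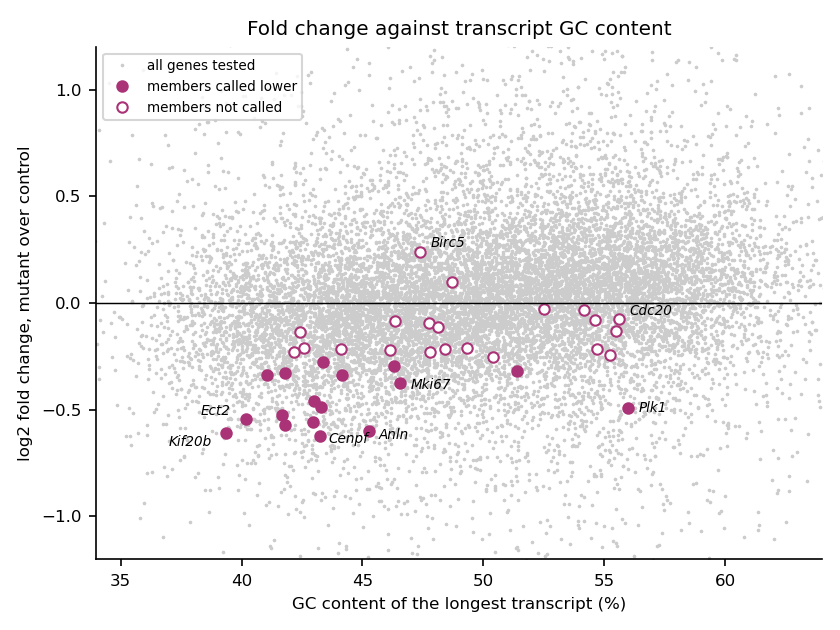
Log2 fold change, mutant over control, against the GC content of the longest transcript for all tested genes (grey) and the 38 members (filled where called lower); genes outside the plotted range are cropped. Filled points gather under 45% GC, where 12 of 16 members fell, with Plk1 as a called gene of high GC content.

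Markers of other cell types differed between the groups, and their part in the lower level of mitotic transcripts was not tested. Each count of markers is to be read against the 8.63% of all tested genes that rose and the 9.13% that fell, and the most abundant marker of a list is the one with the highest level averaged over both groups. Among 12 genes that mark skeletal muscle or satellite cells, 10 rose, and their summed level was 74.1 to 102 CPM in controls and 203 to 307 CPM in mutants. Actc1, the most abundant of them, had 16.6 to 27.1 CPM and 63.8 to 98.4 CPM. Of 10 endothelial markers 5 rose (Pecam1, Tek, Kdr, Tie1 and Lyve1), with sums of 172 to 203 CPM against 278 to 395 CPM. Cdh5, the most abundant, had 33.9 to 40.1 CPM and 45.7 to 84.3 CPM and was not called. Of 9 keratinocyte markers 5 rose (Krt5, Krt15, Krt10, Krt1 and Dsp), with sums of 492 to 790 CPM against 948 to 1183 CPM. Krt5 led with 165 to 267 CPM and 311 to 406 CPM, a call lost in 5 of 15 alternatives. Of 5 tested mast cell markers Cpa3, Tpsb2 and Cma1 rose and Kit fell, with sums of 79.5 to 97.3 CPM against 106 to 124 CPM. Kit, the most abundant on average over both groups but not in mutants alone, had 30.2 to 42.9 CPM and 11.5 to 21.4 CPM, a call also lost in 5 alternatives. Of 6 tested adipocyte markers Fabp4 rose, from 112 to 157 CPM in controls to 196 to 284 CPM in mutants, a call lost in 3 alternatives.

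Of 10 leukocyte markers 1, Fcna, rose, near the 8.63% of all tested genes that rose. The sums were 197 to 371 CPM against 276 to 341 CPM, and Mrc1, the most abundant, had 74.5 to 106 CPM and 91.7 to 105 CPM. The shares of all tested genes, 8.63% higher and 9.13% lower, apply to every list below. Of 12 pericyte markers Kcnj8 and Abcc9 rose (sums of 1256 to 1575 CPM against 1204 to 1496 CPM, where Rgs5 was the most abundant, though in mutants Pdgfrb was higher, with 229 against 185 CPM on average). Of 8 smooth muscle markers Smtn and Myocd fell (769 to 1040 CPM against 469 to 693 CPM), and Acta2 led with 269 to 370 CPM and 170 to 279 CPM. Of 10 fibroblast markers Pdgfra and Dpp4 fell and Clec3b rose, and the sums were 119360 to 134750 CPM in controls and 104520 to 124770 CPM in mutants, led by Col3a1 with 50150 to 57690 and 45750 to 54340 CPM. Of 6 melanocyte markers Mitf fell (244 to 376 CPM against 137 to 262 CPM), and Dct led with 131 to 177 CPM and 67.0 to 142 CPM. Of 6 red blood cell markers 1, Hba-a1, was tested and not called, 1 was at 0 in every library, and the sums were 0.897 to 1.93 CPM against 2.47 to 7.29 CPM. Of 10 genes of the dissociation response Jun, the most abundant, rose (1306 to 1847 CPM against 2238 to 2668 CPM) and Hspa1a and Hspa1b fell, with sums of 5579 to 9115 CPM in controls and 10289 to 11756 CPM in mutants.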

How the data were processed

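RNA was sequenced from Nestin-GFP-positive cells of 6 mice, 3 per genotype. The authors deposited whole-number read counts per gene. The submitters' processing notes name, with no role given, DESeq2, HTSeq 0.5.3, TopHat2 2.0.4, cutadapt 1.1 and FastQC, and the genome build mm9. Beside 37991 genes each file lists 5 entries for reads with no gene, which took 36.9% to 41.7% of the reads listed and were left out. Symbols matched 86.6% of gene rows and 99.3% of counts.

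After the low-count filter filterByExpr (minimum count 10, minimum total 15) and TMM scaling, 15035 genes entered the robust quasi-likelihood F test of edgeR 4.0.16 (R 4.3.3) on genotype alone. A gene was called at a Benjamini-Hochberg adjusted p under 0.05. Intervals are at 95%, and mean ± SD is over 3 libraries. The alternatives were 13 planned ones (RLE and total-count scaling, no filter, DESeq2 1.42.0, limma-voom with limma 3.58.1, non-robust estimation, a replicate block and each library left out) and 2 chosen after seeing the data, in which each library's smooth trend with transcript GC content or length was removed as an offset. Exon and transcript lengths and GC content came from GENCODE M21. P-values set the difference between the genotypes against the spread between mice within each group. That spread was estimated with information shared across genes.

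The members and lists were chosen with earlier results of these data known. All 38 members are named with their fold change. Levels in every library are given for the 2 called members of each role group with the smallest adjusted p (filled from uncalled members with the highest level per kb) and for some uncalled members chosen after their values were seen (Cdk1, Foxm1, Aurkb, Incenp, Birc5, Cdc20, Cenpa, Racgap1). Of other lists, up to 6 called mitosis genes, 4 S phase genes and 4 regulators are named by smallest adjusted p. One marker list is not reported here.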

Additional observations from a re-analysis of the deposited data

How the results depend on the processing

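Of the 17 calls among mitosis genes, 10 were kept under all 15 alternatives and 7 were lost under at least 1. With 1 library left out, members called lower numbered 10 to 21 and members called higher 0 to 1, and the median log2 fold change of members lay between -0.34 and -0.21. All genes called lower then numbered 753 to 1500 and higher 658 to 1199, other mitosis genes called 16 to 37, S phase genes called 8 to 13 and regulators called 4 to 7. RLE scaling, total-count scaling, no filter, DESeq2, limma-voom and non-robust estimation gave 17, 16, 18, 16, 15 and 15 members lower. With total-count scaling 5 regulators were called. Without mutant replicate 2 the log2 fold change turned from below to above 0 for Ube2c (0.0067), Racgap1 (0.00067), Cdc20 (0.034), Cdc25b (0.0034) and Aurkb (0.0030), and without control replicate 2 for Cdc25b (0.0017) and Aurkb (0.022). With 1 library left out these 5 ranged from -0.23 to 0.0067, -0.14 to 0.00067, -0.15 to 0.034, -0.076 to 0.0034 and -0.092 to 0.022. None of these was called in any alternative, and the cause was not tested. Replicate numbers are shared between the groups, but the labels tie them to no litter or batch. Over 5000 abundant genes the deviations of same-numbered libraries from their group means correlated at 0.319, 0.0907 and -0.199. With 3 libraries per group these correlations cannot settle whether the numbers pair the mice. The deposited files number each mutant 1 higher than its title does, and the block used the titles. By the files' numbers control replicate 2 would go with mutant replicate 1 (-0.237) and control replicate 3 with mutant replicate 2 (0.336), and no fit was made with them. With the replicate block 16 members were lower and 0 higher, with a median of -0.24, and 1439 genes were lower and 1328 higher overall. Members had at least 145 reads per library, so counting depth limits Cdc25c and Ttk most. Each group had 3 mice, which limits the precision of all values.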
